A study of Capra hircus with 23 samples.

Results

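The first day of induction was examined in goat (Capra hircus) ear fibroblasts, by setting the 2 libraries taken at day 1 (5i1d1 and 5i1d2) against the 3 libraries taken at day 0 (CK1, CK2 and CK3). These 5 libraries were selected by their column names from the 17 libraries of the deposited tables, and the labels described 23 samples in all. Day 0 was the ear fibroblasts before induction, and day 1 the same kind of cells after 1 day in the medium that the labels call BFRTV, on dishes coated with Matrigel. The study's methods list forskolin, TTNPB, valproic acid (VPA), RepSox and tranylcypromine as the small molecules of its 5i system, and give Guanzhong dairy goats aged 2 to 3 months as the source of the fibroblasts. Total RNA was sequenced after depletion of ribosomal RNA. The titles carry codes that the labels do not explain, and each of these days has samples of more than one code, but the columns could not be tied to them, so libraries are called by their column names. Whether the samples of a day were separate cultures or animals is not stated in the labels. The p-values below therefore measure a spread between libraries of the same day, which may be technical. Unless stated, that spread is pooled over all days of the series.

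As background, direct reprogramming by chemicals changes the identity of a somatic cell without added transcription factors, and the first day is when the compounds first act on the fibroblasts. Forskolin activates adenylyl cyclase and raises cyclic AMP, TTNPB is an agonist of retinoic acid receptors, RepSox inhibits the type I receptor of TGF-beta, and VPA and tranylcypromine inhibit histone deacetylases and the histone demethylase LSD1. Fibroblasts make and remodel the extracellular matrix, and mammary epithelial cells form polarised layers that make and secrete milk. The features of the tables carry running IDs, and the files do not pair them with gene names. None of them matched the 28911 genes of the RefSeq table (0 IDs), so no gene is named, the fibroblast identity of the day 0 cells could not be checked against markers, and no sequence is shown.

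The libraries of a day were not alike, and this touches every result below. Totals ran from 21540742 counts in CK3 to 26084121 in 5i1d2, so that a count of 0 allows a level of up to 3 counts, or 0.139 CPM and 0.115 CPM (CPM, counts scaled to the library total). These limits cover counting error only. Over the 12719 features that averaged at least 50 counts in the 5 libraries, the rank correlation of counts was 0.998 between CK1 and CK2, 0.511 between CK1 and CK3, and 0.852 between 5i1d1 and 5i1d2. CK3 had the fewest features with a count, 15605, against 18093 in CK1 and 19026 in 5i1d1. The scaling factor of the trimmed mean of M-values (TMM) was 0.346 for CK3, against 0.984 in 5i1d2, 0.990 in CK1, 0.997 in CK2 and 1.17 in 5i1d1. Each result is therefore given with and without CK3, and for 5i1d1 and 5i1d2 apart.

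The comparison of the 2 days asks which transcripts moved within the first day of treatment. With all libraries in the fit, 680 features were higher and 291 lower at day 1 (edgeR quasi-likelihood test, adjusted p under 0.05), which were 4.06% and 1.74% of the 16765 features tested (5.79% together). Without CK3, 2313 features were higher and 1545 lower, which were 13.8% and 9.24% of 16717 (23.1% together). The balance changed with the libraries in the fit and with the tool. The higher features made up 70.0% of the edgeR calls with every library in, and 51.5% of the DESeq2 calls. With edgeR the share was 51.8% without CK1, 51.6% without CK2 and 60.0% without CK3. With CK3 in the fit, leaving out either day 1 library moved it the other way, toward a larger share of higher features. With CK3 left out, dropping either day 1 library as well lowered the share. Of the 971 features called with CK3, 967 were called in the same direction without it, 676 higher and 291 lower, and 0 in the opposite direction. The calls rest on a spread estimated over all days of the series. In a fit of the day 0 and day 1 libraries alone, edgeR called 0 features with CK3 and 0 without it, where 745 and 3026 features had an unadjusted p under 0.05, and DESeq2 called 115 and 1360.

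The changes called with CK3 were mostly larger than 2-fold. The median log2 fold change was 2.55 among the higher features (SE typically 0.51) and -2.19 among the lower ones (SE typically 0.48), against -0.02 over all features tested. Among the higher features, 125 rose 16-fold or more, 337 between 4-fold and 16-fold, and 215 between 2-fold and 4-fold. Among the lower features, 31 fell 16-fold or more, 138 between 4-fold and 16-fold, and 121 between 2-fold and 4-fold. Without CK3 smaller changes were called too, and the medians were 1.53 and -1.12 against 0.08 over all features, with 574 of the higher and 641 of the lower features under 2-fold. In that fit 188 features rose and 37 fell 16-fold or more.

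Features called higher had low levels at day 0, and features called lower had higher ones. The day 0 level is one side of the contrast that chose them. A call of a rise therefore favours a low day 0 value, and a call of a fall a high one. With all libraries, the median level at day 0 was 0.687 CPM for the higher features and 44.7 CPM for the lower ones, against 14.8 CPM over all features tested. At day 1 the medians were 6.00 CPM and 14.5 CPM. Without CK3 the day 0 medians were 3.89 CPM and 61.0 CPM, against 17.1 CPM. By mean level over the day 0 and day 1 libraries, 205 features rose and 13 fell among the 3069 under 1 CPM, and 300 rose and 62 fell among the 3773 between 1 and 10 CPM. Among the 7868 features between 10 and 100 CPM 145 rose and 138 fell, and among the 2055 at 100 CPM or more 30 rose and 78 fell. The turn from rising to falling with level was also seen without CK3, where 383 rose and 65 fell under 1 CPM and 154 rose and 405 fell at 100 CPM or more.

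**Figure D1:**
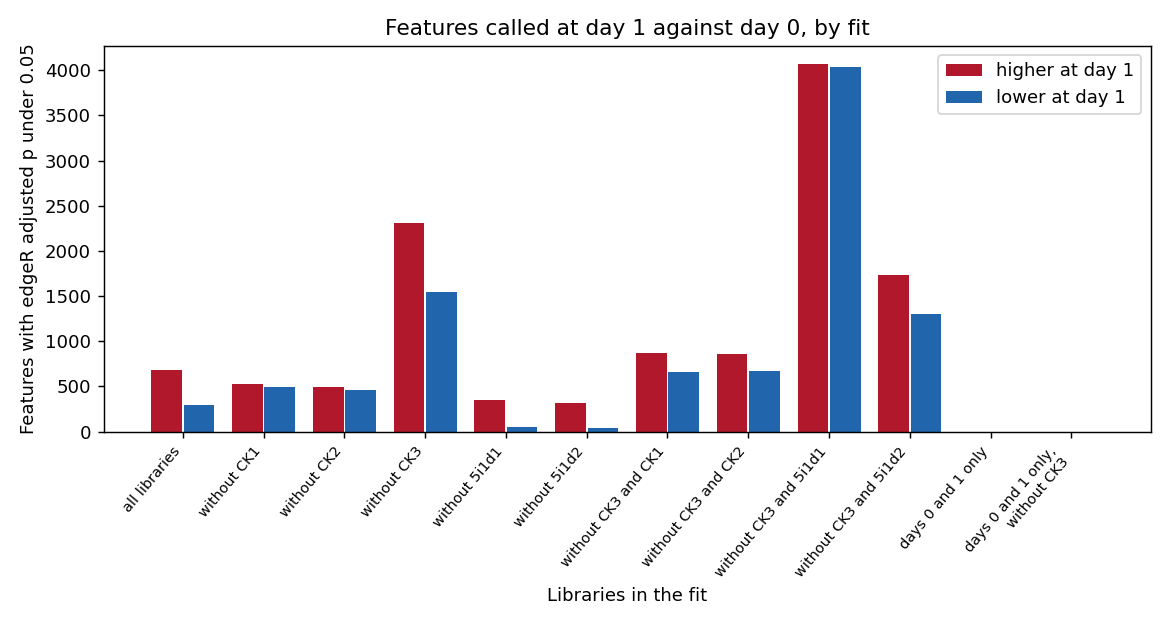
Number of features with an edgeR adjusted p under 0.05 at day 1 against day 0 (vertical axis) for each set of libraries in the fit (horizontal axis), as bars for features higher and lower at day 1. The fit with all libraries gave 680 higher and 291 lower, the fit without CK3 and 5i1d1 gave 4066 and 4039, and the fits of days 0 and 1 only gave 0.

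The 2 libraries of day 1 did not lie equally far from CK1 and CK2. With CK3 in the fit, 5i1d1 alone gave 322 higher and 42 lower features, 2.12% of 17190, and 5i1d2 alone gave 348 higher and 54 lower, 2.34% of 17197. Without CK3 they were far apart. 5i1d1 alone then gave 1730 higher and 1300 lower features against CK1 and CK2, 17.7% of 17100, while 5i1d2 alone gave 4066 higher and 4039 lower, 47.3% of 17124. A lone library is assumed here to vary like those of the other days. The number of calls in each case also depends on the spread of the fit, with a biological coefficient of variation of 0.486 with all libraries, 0.259 without CK3, and 0.208 without CK3 and either day 1 library.

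The same order was seen in single-library differences, which carry no test. On the scale of log2(TMM-scaled CPM + 1), 5i1d1 differed from the mean of CK1 and CK2 with a standard deviation (SD) of 0.74 over the 12719 features, and 5i1d2 with an SD of 1.14. In 5i1d1, 868 features were at least 2-fold above CK1 and CK2 and 775 at least 2-fold below, and in 5i1d2 there were 1951 above and 2488 below. Against CK3 the order turned: 5i1d1 differed from it with an SD of 2.62 and 5i1d2 with an SD of 1.96. At least 2-fold above CK3 were 5901 features in 5i1d1 and 5303 in 5i1d2, and at least 2-fold below it 4159 and 3516. The day 1 libraries differed from each other with an SD of 0.95, more than 5i1d1 differed from CK1 and CK2. CK3 differed from CK1 and CK2 with an SD of 2.49, wider than the difference of either day 1 library from CK1 and CK2. CK1 and CK2 differed from each other with an SD of 0.14, so the wide spread within day 0 lay in CK3.

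**Figure D2:**
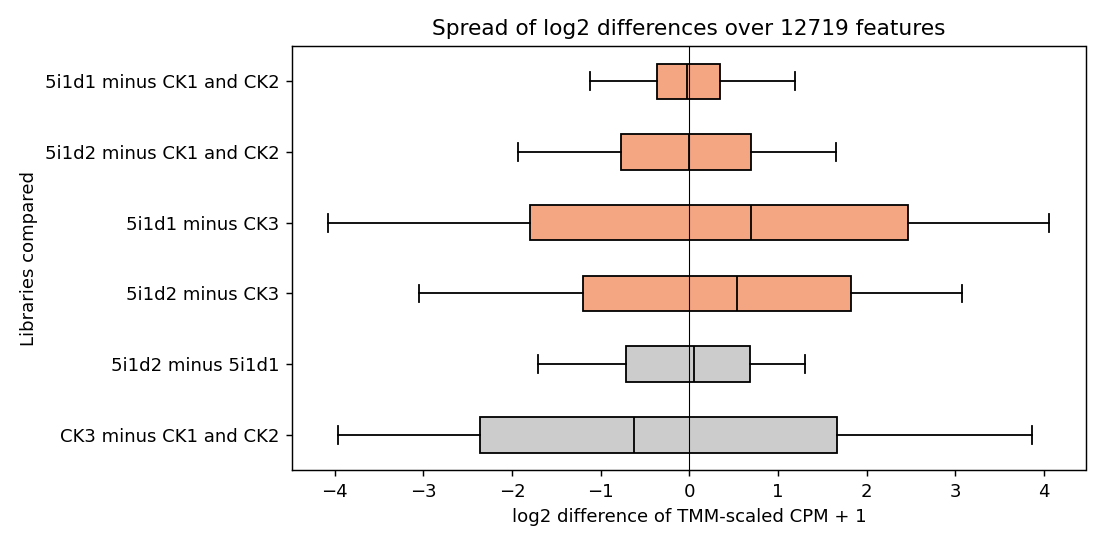
Log2 differences of TMM-scaled CPM + 1 (horizontal axis) over 12719 features for 4 day 1 against day 0 differences (orange) and 2 differences within a day (grey); boxes span the quartiles with the median as a line, and whiskers the 5th to 95th percentiles. The box of 5i1d1 against CK1 and CK2 runs from -0.37 to 0.35, and that of CK3 against CK1 and CK2 from -2.36 to 1.66.

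The way 5i1d2 departed from 5i1d1 ran along the way CK3 departed from CK1 and CK2. These 2 differences share no library, and their Pearson correlation over the 12719 features was 0.796 (Spearman 0.824). At least 2-fold in both were 1481 features higher and 2063 lower, with 22 in opposite directions. Features are not independent replicates, and all values share the same TMM factors and feature models. Feature length moved with both differences: the correlation with log2 length was -0.467 for 5i1d2 against 5i1d1 and -0.349 for CK3 against CK1 and CK2. Within 5 classes of length the correlation of the 2 differences lay between 0.698 (870 features under 1000 nt) and 0.795 (4881 features of 2000 to 4000 nt). The part of the title codes, RNA quality or library preparation in this pattern was not tested, as the columns could not be tied to the labels of single samples.

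**Figure D3:**
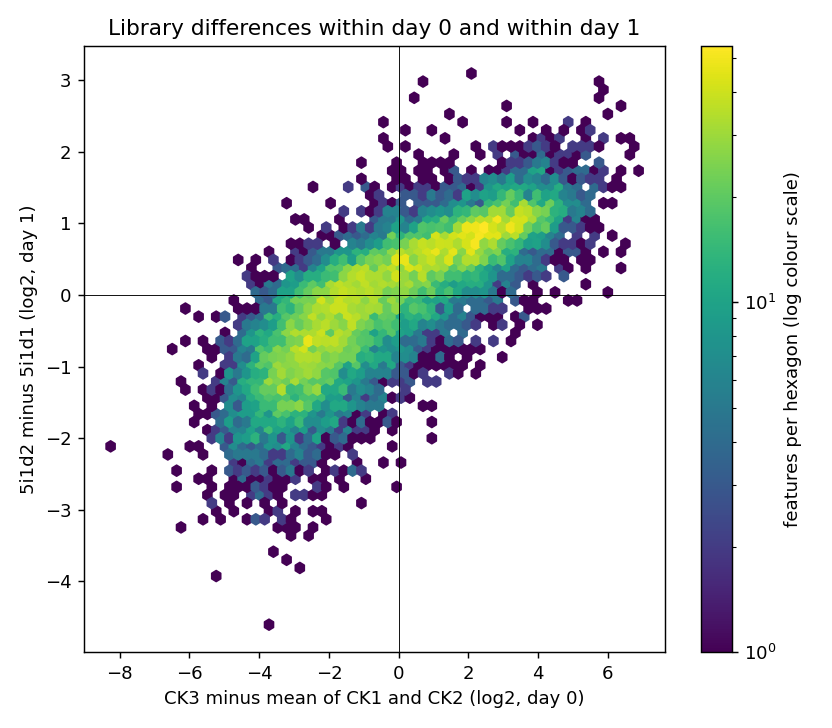
For each of 12719 features, the log2 difference of CK3 from the mean of CK1 and CK2 at day 0 (horizontal axis) against that of 5i1d2 from 5i1d1 at day 1 (vertical axis), both on TMM-scaled CPM + 1; colour gives the number of features per hexagon. The cloud rises from lower left to upper right with a Pearson correlation of 0.796, and its horizontal spread (SD 2.49) exceeds its vertical spread (SD 0.95).

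Which day 0 library served as baseline therefore set much of what a day 1 library showed. With 5i1d1 set against CK1 and CK2, and 5i1d2 against CK3, the responses share no library. Their correlation over features was 0.359, and 606 features were at least 2-fold higher in both, 433 at least 2-fold lower in both and 164 opposite. With the baselines exchanged, 5i1d1 against CK3 and 5i1d2 against CK1 and CK2, the correlation was -0.458, and 396 features were higher in both, 217 lower in both and 3153 opposite. Both arrangements use the same 5 libraries as the within-day differences above, so the change of sign is not separate evidence of that pattern. The balance of the 2-fold counts followed the scaling. On CPM without TMM factors the first arrangement gave 1054 higher, 185 lower and 170 opposite, and the second 648, 104 and 2952. Dropping the factors moved the median difference from CK3 from 0.69 to 2.11 in 5i1d1 and from 0.54 to 1.68 in 5i1d2.

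At the median, the features called with CK3 differed less than others between the unlike libraries, on a log2(TMM-scaled CPM + 1) scale that compresses the differences of low features. Among the higher ones, the median size of the log2 difference of CK3 from CK1 and CK2 was 0.29, and among the lower ones 1.06, against 1.58 over all features tested. That of 5i1d2 from 5i1d1 was 0.41 and 0.29, against 0.56. A call with CK3 in the fit favours features with small differences between libraries of a day. The smaller medians above can therefore come from the choice of features, and so can the likeness of the day 1 responses. The responses of the day 1 libraries were near each other for the features called with CK3. The higher features stood a median of 1.27 above CK1 and CK2 in 5i1d1 and 1.30 in 5i1d2 on this log2 scale, and the lower ones a median of -1.55 and -1.48. The change was larger in 5i1d2 for 51.9% of the higher and 46.0% of the lower features. Among the calls made without CK3, the change from CK1 and CK2 was larger in 5i1d2 for 69.8% of the higher and 69.1% of the lower features, with medians of 0.80 in 5i1d1 and 1.16 in 5i1d2 for the higher ones and -0.86 and -1.17 for the lower ones. For these lower features the median difference from CK3 was of the other sign, 0.51 in 5i1d1 and 0.17 in 5i1d2. These medians describe features chosen from the same libraries and carry no test.

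On TMM-scaled levels both day 1 libraries lay above all 3 day 0 libraries in 16.3% of the features tested and below all 3 in 8.03%. All 680 higher features and 285 of the 291 lower ones were among them. On CPM without the factors the shares were 26.2% and 3.87%, and 680 and 191 of the called features did not overlap. The fits had chosen these features from the same contrast. Against CK1 and CK2 alone, both day 1 libraries lay above in 29.8% and below in 26.3% of the features on TMM-scaled levels.

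A smaller set was called whichever library was left out. Over the fit with all libraries and the 5 fits that leave out CK1, CK2, CK3, 5i1d1 or 5i1d2, 186 features were called higher each time, 1.12% of the 16660 tested in all of them, and 19 were called lower each time, 0.114%. The median log2 fold change of the 186 was 3.37, from 1.31 to 11.02, and 69 of them changed 16-fold or more. Their median level was 0.626 CPM in CK1, 0.674 CPM in CK2 and 0.186 CPM in CK3, and 6.91 CPM in 5i1d1 and 6.86 CPM in 5i1d2. Of the 186, 105 were under 1 CPM in every day 0 library and 17 had 0 counts in all 3. With these 17 set to the lower bound that 3 pooled counts at day 0 allow, the median of the 186 was 3.35. The median log2 fold change of the 19 was -2.68, from -8.02 to -1.58. Their median level was 61.9 CPM in CK1, 62.3 CPM in CK2 and 18.2 CPM in CK3, and 8.64 CPM in 5i1d1 and 6.59 CPM in 5i1d2. The median levels of both sets are without TMM factors. With the factor of 0.346 for CK3, its medians lie nearer to those of CK1 and CK2. Of the 205 features, 89 higher and 14 lower also changed at least 4-fold in the fits with and without CK3, reached a group mean of at least 5 CPM on the higher side, and showed no overlap between the groups. The IDs of the 2 that moved furthest up and the 2 that moved furthest down follow.

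The feature gene8699, with a length of 3809 nt, was close to undetected before induction and well expressed after 1 day. It had 0 counts in CK1, 0 in CK2 and 1 in CK3, and 969 counts in 5i1d1 and 1701 in 5i1d2, which are 40.5 CPM and 65.2 CPM (mean 52.8 ± 17.5 CPM, SD, n = 2). The ratio of the pooled levels was 3735, with an exact 95% interval from counting error of 670 to 147592. The fit put the log2 change at 11.02 (SE 1.13) with an edgeR adjusted p = 0.000230, and the edgeR adjusted p without CK3 was 0.000250. Against CK1 and CK2 alone, with 3 counts taken as the limit over both, the pooled day 1 level was at least 862-fold higher. Both day 1 libraries lay far above all day 0 libraries. Over days 2, 3, 4, 6 and 8 its mean level was 82.8, 62.0, 38.5, 13.6 and 7.34 CPM in turn, and on days 2, 3 and 4 its lowest and highest libraries were more than 2-fold apart.

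The feature gene15412, with a length of 1285 nt, had 0 counts in all 3 day 0 libraries. It had 122 counts in 5i1d1 and 163 in 5i1d2, or 5.09 CPM and 6.25 CPM (mean 5.67 ± 0.816 CPM, SD, n = 2). With 3 counts taken as the limit over the pooled day 0 libraries, the pooled day 1 level was at least 133-fold higher. The edgeR adjusted p was 0.000297, and 5.34e-05 without CK3. Among the days sequenced, its level was highest at day 1. Its mean over days 2, 3, 4, 6 and 8 was 2.23, 0.557, 0.228, 0.0431 and 0.177 CPM in turn. No difference between the other days was tested for this feature.

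The feature gene25654, with a length of 4560 nt, was close to undetected after 1 day. It had 236 counts in CK1, 223 in CK2 and 105 in CK3, or 9.85, 9.11 and 4.87 CPM, and 1 count in each day 1 library. The pooled level at day 0 was 202 times that at day 1, with an exact 95% interval from counting error of 55.5 to 1669. These levels and this ratio are without TMM factors. On TMM-scaled levels CK3, with a factor of 0.346, lay above CK1 and CK2. On the fitted log2 scale the change was -8.02 (SE 0.99) with an edgeR adjusted p = 0.00275, while without CK3 it was -7.83 with an edgeR adjusted p = 0.000438. From day 2 to day 8 it had at most 2 counts in any library.

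The feature gene7494, with a length of 3147 nt, fell by day 1 and had higher mean levels at the later days. Its level was 58.0 CPM in CK1, 57.1 CPM in CK2 and 7.66 CPM in CK3, and 2.34 CPM in 5i1d1 and 2.22 CPM in 5i1d2. The day 1 libraries were near each other and below CK3, which was itself below CK1 and CK2. These levels are without TMM factors. With the factor of 0.346 for CK3, its gap to CK1 and CK2 narrows and its gap to day 1 widens. The fit gave a log2 fold change of -4.43 (SE 0.58) with an edgeR adjusted p = 0.00121, while without CK3 it gave -4.77 (SE 0.45) with an edgeR adjusted p = 4.39e-05. Over days 2, 3, 4, 6 and 8 its mean level was 12.5, 14.8, 23.4, 24.7 and 35.7 CPM in turn. The difference of these days from day 1 was not tested for this feature. In the edgeR fits of the day 0 and day 1 libraries alone none of the 4 features passed the threshold, with edgeR adjusted p = 0.646 for each, and 0.0640 to 0.0746 without CK3. In the DESeq2 fits of the same libraries all 4 passed, with DESeq2 adjusted p from 7.65e-09 to 0.000435, and from 1.66e-22 to 2.53e-07 without CK3.

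**Figure D4:**
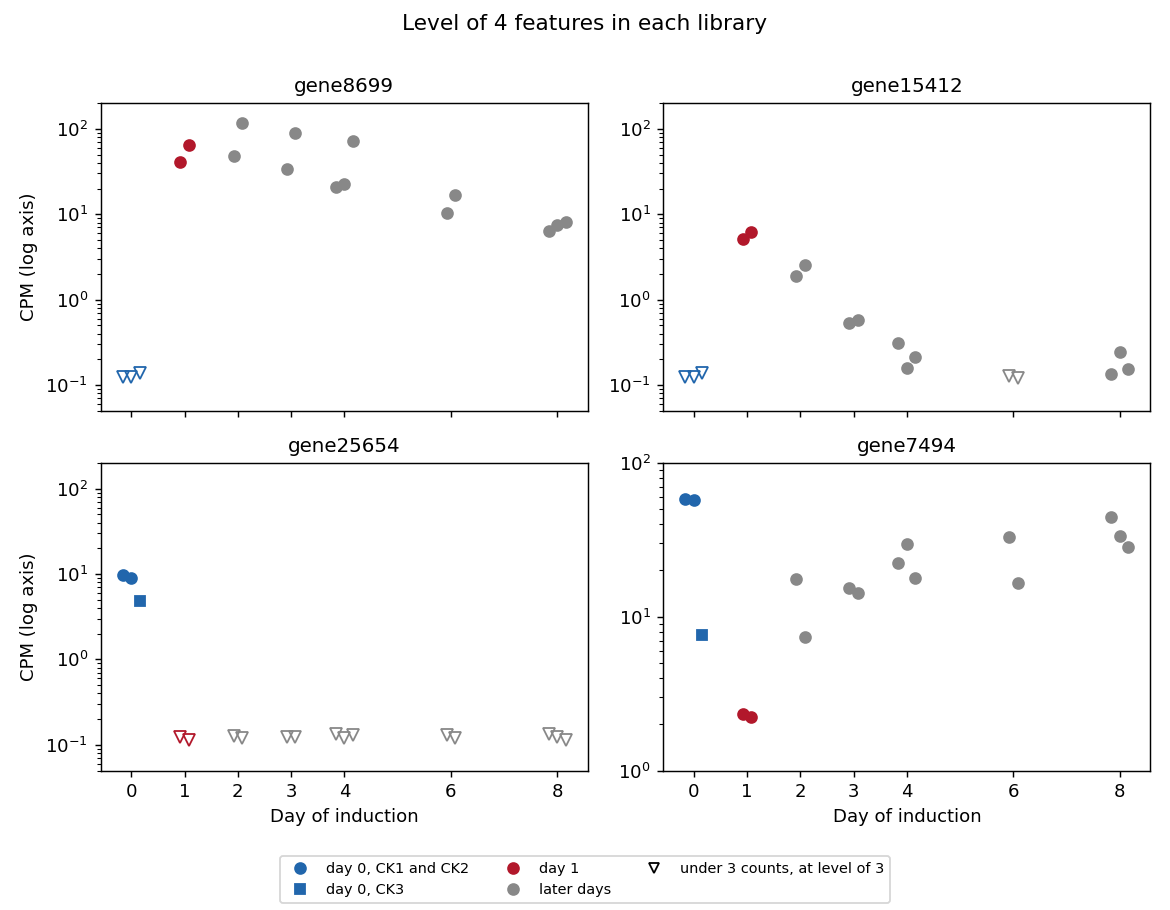
Levels of 4 features in CPM (vertical log axis) by day of induction (horizontal axis), 1 point per library, with CK3 as a square; an open triangle, placed where 3 counts would lie, stands for a library that had under 3 counts. gene8699 and gene15412 went from at most 1 count at day 0 to means of 52.8 and 5.67 CPM at day 1, gene25654 went to 1 count per library, and gene7494 went from 58.0, 57.1 and 7.66 CPM to 2.34 and 2.22 CPM. The vertical range of gene7494 differs from that of the other panels.

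Features with counts at just one of the days were counted only where each library of that day had at least 10. Of the 28931 features, 0 had at least 10 counts in each day 0 library and 0 counts at day 1. The opposite pattern, 0 counts at day 0 and at least 10 in each day 1 library, was seen in 21. Their levels at day 1 were low, from 0.418 to 5.09 CPM in 5i1d1 with a median of 0.919, and from 0.383 to 6.25 CPM in 5i1d2 with a median of 1.15, and 12 of the 21 were higher in 5i1d2. Later, 10 of the 21 had a count in every library of days 2 to 8. By the same limits, with CK1 and CK2 alone as day 0, 31 features were seen only at day 1 and 5 only at day 0. With CK3 alone, which had the fewest features with a count, these numbers were 721 and 7. For single day 1 libraries against all 3 day 0 libraries, 45 features had 10 or more counts in 5i1d1 and 43 in 5i1d2.

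The most abundant transcripts of the day 1 libraries overlapped in part with those of day 0. Of the 100 features with the most counts in 5i1d1, 80 were among the 100 of CK1, 32 among those of CK3 and 72 among those of 5i1d2. Of the 100 of 5i1d2, 64 were among those of CK1 and 50 among those of CK3. Of the 100 of 5i1d1, 12 were called with all libraries and 27 without CK3, and of the 100 of 5i1d2, 9 and 19, beside 5.79% and 23.1% of all features tested. The feature with the most counts in 5i1d2, with a length of 678 nt, took 1.33% of that library and 0.499% of 5i1d1, against 0.125% of CK1, 0.131% of CK2 and 0.252% of CK3. Its log2 fold change was 1.44 with CK3 (edgeR adjusted p = 0.282) and 2.78 without it (edgeR adjusted p = 0.00730). The feature with the most counts in 5i1d1, with a length of 5790 nt, took 0.799% of that library and 0.191% of 5i1d2, with 0.523% of CK1, 0.487% of CK2 and 0.00686% of CK3 (edgeR adjusted p = 0.870, and 0.736 without CK3). The feature with the most counts in CK1 and CK2 fell from 1.06% and 1.01% to 0.415% in 5i1d1 and 0.166% in 5i1d2, and took 0.0123% of CK3. It was called without CK3 (log2 fold change -2.01, edgeR adjusted p = 0.00139) and not with it (-1.43, edgeR adjusted p = 0.366). These features were chosen after their values were seen.

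Feature length moved with single libraries of both days. The correlation with log2 length of the difference from CK1 and CK2 was 0.0481 for 5i1d1 and -0.359 for 5i1d2. Features under 1000 nt took 7.32% of the counts in CK1, 7.59% in CK2 and 22.9% in CK3, and 8.00% in 5i1d1 and 13.2% in 5i1d2. Features of 4000 to 8000 nt took 27.9%, 27.4% and 11.9% at day 0, and 29.7% and 22.0% at day 1. In both length classes 5i1d1 lay near CK1 and CK2, and 5i1d2 lay between them and CK3. Without CK3, the share of features called higher was 14.2% under 1000 nt and 9.95% at 8000 nt or more, while the share called lower was 3.41% and 12.2%. With CK3 these shares were 3.01% and 3.93% for higher and 0.982% and 1.20% for lower. The median length was 2436 nt for the features called higher and 3666 nt for those called lower without CK3, against 2799 nt over all tested, and 2774 nt and 2780 nt with CK3, against 2797 nt. The part of fragment length or RNA quality was not tested.

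**Figure D5:**
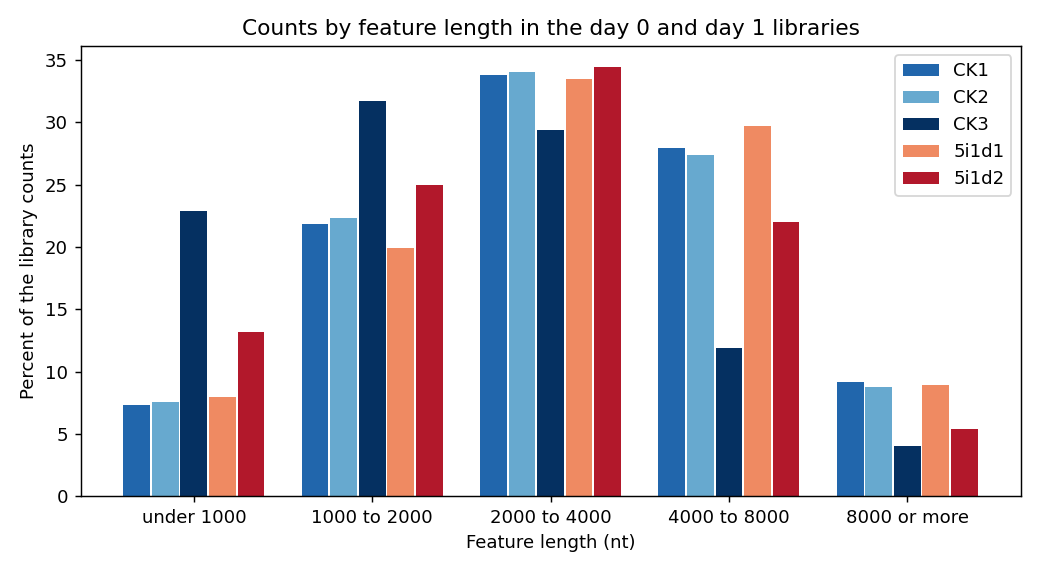
Percent of the counts of each day 0 and day 1 library (vertical axis) in features of 5 length classes (horizontal axis, nt), 1 bar per library. CK1, CK2 and 5i1d1 hold 7.32%, 7.59% and 8.00% of their counts in features under 1000 nt, 5i1d2 holds 13.2% and CK3 22.9%.

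Few features with the ID prefixes id and rna could be tested. Of 162 with the prefix id 5 were tested (4 without CK3), and edgeR called 0, with 1 and 0 at an unadjusted p under 0.05 and 0 called by DESeq2. Of 24 with the prefix rna 12 were tested, and edgeR called 0 with and without CK3, with 3 at an unadjusted p under 0.05 in each fit, while DESeq2 called 2 and 1. Over all features edgeR called 5.79% with CK3 and 23.1% without it, and 3690 of 16765 and 6208 of 16717 had an unadjusted p under 0.05, so these counts are too small to set the prefixes apart. The features with the prefix rna took 0.0930% of the counts in CK1, 0.0956% in CK2 and 0.0362% in CK3, and 0.115% in 5i1d1 and 0.150% in 5i1d2. All of the edgeR calls were features with the prefix gene.

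The features called at day 1 were followed at the later days as a description, since every day was set against the same day 0 libraries. The median log2 fold change of the 680 higher features over days 1, 2, 3, 4, 6 and 8 was 2.55, 2.53, 2.46, 2.32, 2.12 and 2.10 in turn. That of the 291 lower features was -2.19, -2.12, -2.19, -2.10, -2.08 and -1.92. Over all features tested it lay between -0.02 and 0.14. For the calls without CK3 the medians went from 1.53 at day 1 to 0.99 at day 8 among the higher features and from -1.12 to -0.74 among the lower ones, against 0.08 and 0.04 over all features. The 186 features called higher in each of the 6 fits had medians of 3.37 at day 1, 3.64 at day 3 and 3.03 at day 8, and the 19 called lower -2.68, -2.43 and -2.24. As the features were chosen at day 1, errors of the day 1 libraries can enlarge the values of that day alone.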

How the data were processed

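Counts per feature, as deposited, were whole numbers that the authors had not normalized, and the deposited FPKM values were the same counts divided by the library total and a length per feature (all 22657 features, relative tolerance 1e-06). Lengths were taken from this ratio. The submitters' processing notes name FastQC 0.10.1, HTSeq and DESeq2 1.16.1. For the aligner, build and annotation, nothing is stated (not given in the sources used here). Tests were run with edgeR 4.0.16 (R 4.3.3, TMM, filterByExpr, quasi-likelihood F test, Benjamini-Hochberg, adjusted p under 0.05) in one fit of 17 libraries with 1 coefficient per day, with and without CK3. SE is the fold change over the square root of F. Alternatives were DESeq2 1.42.0, limma 3.58.1 on log2(FPKM + 1) and log2(FPKM + 0.1), RLE, other filters, the day 0 and day 1 libraries alone, leaving out each library and a replicate block. Levels are CPM without TMM factors unless stated. Members, lists and tests were chosen with earlier results of these data known. Features given by ID had to be called in every fit without 1 of the 5 libraries, to change by at least 2 on the log2 scale with and without CK3, to reach a group mean of at least 5 CPM and to show no overlap, and the 2 largest in each direction were taken. The pathway and marker lists needed gene names and were not tested. Other samples of the labels were not analysed here.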

Additional observations from a re-analysis of the deposited data

How the results depend on the processing

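With all libraries, 971 features were called, and other settings gave 748 without a filter, 914 with a replicate block, 958 with RLE, 1160 and 1269 with limma, 579 with a mean of 5 CPM or more (fewer features tested), 2119 with DESeq2, 1411 at the study's threshold and 0 with the day 0 and day 1 libraries only (DESeq2 115, added after seeing the data). Leaving out 1 library gave 364 (5i1d2) to 3858 (CK3), with 402 without 5i1d1. Without CK3, 3858 were called, 1444 at the study's threshold and 0 with the day 0 and day 1 libraries only (DESeq2 1360, also added), and leaving out a further library gave 1524 (CK1), 1525 (CK2) and 3030 (5i1d2) to 8105 (5i1d1). The study's threshold is a p under 0.05, taken here as unadjusted, with a log2 fold change of at least 2 in size. It was applied here to DESeq2 values, while the other counts use an adjusted p. The study used it for lncRNAs of day 8 against day 0. For the remaining differences the cause was not tested. The share of calls that were higher was 70.0% with all libraries, 62.5% with RLE, 51.5% with DESeq2, 85.3% and 86.6% with limma, and 51.8% without CK1. Without CK3 it was 60.0%, against 70.7% with limma on log2(FPKM + 0.1) and 50.2% when 5i1d1 was also left out. Without TMM factors the median log2 difference from CK1 and CK2 was 0.19 in 5i1d1 and -0.01 in 5i1d2, and from CK3 2.11 and 1.68. Of the values of the 4 features given by ID, 96 stayed on their side of the threshold, 8 lost it (the edgeR fits of days 0 and 1 only, while the DESeq2 fits of the same libraries kept all 4) and 0 reversed. These features were chosen for being called in each fit without 1 of the 5 libraries, so their values in those fits could not lose it. With a mean of 5 CPM or more, gene15412 and gene25654 were not tested. The block used the numbers in the column names, which the labels do not tie to a shared culture or animal. Deviations from the day means correlated at 0.801 for CK1 with 5i1d1 and at -0.785 for CK2 with 5i1d2, but those of the 2 day 1 libraries are opposite by construction and CK1 and CK2 are alike, so this does not show whether the numbers pair the libraries. The block gave 914 and, without CK3, 4577 calls.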
